A study of Mus musculus with 12 samples.

Results

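The 10 genes described here encode enzymes that build purine and pyrimidine nucleotides from small precursors: Cad, Dhodh and Umps of the pyrimidine route, Ppat, Gart, Pfas, Paics, Adsl and Atic of the purine route, and Impdh2 of its guanine branch. They were picked by name, as textbook enzymes of these routes, from the 25078 genes in the table of read counts. The choice was made with earlier results of these data known. Counts of calls set beside the shares of all genes therefore describe this list and are not a test of it. All 10 passed the filter on low counts in each fit.

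Donor T cells came from C57BL/6 mice and were recovered from the liver of wild-type (WT) BALB/c recipients on day 6 after hematopoietic cell transplantation (HCT). The recipients were lethally irradiated and also received T cell-depleted bone marrow, so the donor T cells of every group met recipient cells of another strain, the setting in which graft-versus-host disease is studied. The WT group, named for its donors, carried neither deletion. The STAT3-/- group (STAT3ko in the labels) carried floxed Stat3 alleles removed by Cre under the CD4 promoter, which is active in the precursors of both CD4+ and CD8+ T cells. The STAT3-/-PD-1-/- group (STAT3ko PD-1ko) carried in addition a germline deletion of PD-1, and no group with the PD-1 deletion alone was analysed here. Sorted CD4+ and CD8+ donor T cells gave 2 libraries in each of these 3 genotypes, 12 libraries in all, each from lymphocytes of 3 recipients combined. Totals ranged from 21676125 to 24551477 counts per library, and the 10 genes took 0.0663% to 0.168% of them. Levels are given as CPM, the count of a gene relative to its library's total after scaling by the trimmed mean of M values (TMM), and a gene is called changed where edgeR's quasi-likelihood test gave an adjusted p under 0.05 over all genes tested.

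Cells obtain nucleotides either by building the ring systems from amino acids, carbon dioxide and one-carbon units, or by salvaging bases and nucleosides. The pyrimidine ring is completed before ribose phosphate is attached, whereas the purine ring is assembled stepwise on ribose phosphate and ends in inosine monophosphate, from which adenine and guanine nucleotides branch. Resting T cells lean on salvage, and T cells that have been activated and divide draw on the synthesis routes, which is why inhibitors of these enzymes such as mycophenolate and leflunomide act as immunosuppressants.

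The stretch before the start site of 4 of the genes is shown here, to set side by side the promoter sequence of enzymes whose levels moved together. They lie on different chromosomes (mm10): Cad at chr5:31054780-31078479, Gart at chr16:91621397-91646972, Adsl at chr15:80948490-80970947 and Atic at chr1:71557156-71579403. RefSeq promoter windows on GRCm38.p6, the assembly behind mm10, were matched by symbol for 8 of the 10 genes (Cad, Umps, Ppat, Gart, Paics, Adsl, Atic and Impdh2). The 150 bases before each start site read 5′ to 3′ on the strand of the gene, with capitals marking a match to CACGTG in Atic (first base at -7 from the start site) and to TTCNNNGAA in Adsl (first base at -128).
Cad (chr5:31054630-31054779, plus strand): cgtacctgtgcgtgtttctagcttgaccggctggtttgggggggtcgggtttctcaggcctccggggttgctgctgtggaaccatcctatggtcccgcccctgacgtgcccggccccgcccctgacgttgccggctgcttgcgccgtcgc
Gart (chr16:91646973-91647122, minus strand): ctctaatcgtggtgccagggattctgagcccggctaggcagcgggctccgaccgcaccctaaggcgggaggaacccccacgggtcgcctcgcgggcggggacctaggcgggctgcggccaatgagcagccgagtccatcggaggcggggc
Adsl (chr15:80948340-80948489, plus strand): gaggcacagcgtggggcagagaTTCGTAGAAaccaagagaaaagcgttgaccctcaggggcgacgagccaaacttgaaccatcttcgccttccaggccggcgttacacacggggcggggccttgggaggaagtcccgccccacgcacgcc
Atic (chr1:71557006-71557155, plus strand): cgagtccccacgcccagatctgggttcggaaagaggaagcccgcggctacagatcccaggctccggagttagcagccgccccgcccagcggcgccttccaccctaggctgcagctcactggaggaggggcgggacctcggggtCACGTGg

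In the full windows, from 250 bases before to 50 after the start site, both strands were searched for 3 motifs. CACGTG, the E-box form bound by MYC and its relatives, was found in 3 of the 8 windows (Paics, Atic and Impdh2), beside 7.2% of 32851 windows of this length over all genes. TTCNNNGAA, the palindromic form bound by STAT factors, was found in 2 of the 8 (Paics and Adsl), beside 8.3% of all windows. CCGGAAG, the core bound by ETS factors, was found in 2 of the 8 (Ppat and Gart), beside 8.9% of all windows. Of the 4 stretches printed above, those of Cad and Gart hold none of the 3 motifs. No match in these 8 windows overlapped another, and a match is a description of the letters and not of binding.

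The other 6 genes are Umps at chr16:33954782-33967038, Dhodh at chr8:109593248-109608673, Pfas at chr11:68985701-69008460, Impdh2 at chr9:108560436-108565584, and Ppat and Paics. The counts of some of the 10 are less certain than those of others. Ppat (chr5:76913249-76951578, minus strand) and Paics (chr5:76951302-76967509, plus strand) lie head to head, so that their first exons overlap by 277 bases. Of the 51-base stretches of the longest coding transcript, 5.65% in Ppat and 9.13% in Paics also lie in the partner, and the strand setting of the counting is not given in the sources used here. The start of Gart lies 852 bases from that of Son, which runs the other way without overlap. Gart shares 14.1% of its stretches with the antisense gene Gm15964, and Umps shares 4.8% with the antisense gene Gm15829. Impdh2 is the least certain of the 10, since 73.7% of its stretches also lie in the pseudogene Impdh2-ps. No stretch of Cad or Dhodh is shared with another gene, and in Pfas, Adsl and Atic the share is 1.3%, 1.37% and 0.79%.

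The targeted genes were examined first. Stat3 was at 369 and 467 CPM in the CD4+ WT libraries, at 140 and 164 CPM in the STAT3-/- libraries and at 157 and 219 CPM in the STAT3-/-PD-1-/- libraries. In CD8+ cells Stat3 was at 397 and 384 CPM in WT, at 149 and 136 CPM in STAT3-/- and at 154 and 235 CPM in STAT3-/-PD-1-/- libraries. Reads on Stat3 thus remained in each library of both deleted genotypes, below every WT library of the subset. Against WT the log2 fold change of Stat3 was -1.46 ± 0.22 SE in CD4+ and -1.46 ± 0.20 SE in CD8+ STAT3-/- cells, which did not pass over all genes (edgeR adjusted p = 0.055 and 0.108), and it fell in STAT3-/-PD-1-/- cells (-1.13 ± 0.22 SE and -0.996 ± 0.20 SE, edgeR adjusted p = 0.018 and 0.0177). Pdcd1, the gene of PD-1, was at 55.1 and 26 CPM in CD4+ STAT3-/-PD-1-/- libraries and at 93.6 and 65.6 CPM in the CD8+ ones, against 235 to 323 CPM in the other CD4+ libraries and 307 to 454 CPM in the other CD8+ libraries. The position of these reads relative to the deleted exons is not known from gene counts. Of the genes behind the sort, Cd4 was at 1240 to 1890 CPM in the CD4+ and at 0.356 to 2.73 CPM in the CD8+ libraries. Both Cd8 genes together were at 1150 to 2390 CPM in the CD8+ libraries. In the CD4+ libraries they summed to 13.7 and 10.8 CPM in WT, 12.1 and 11.4 CPM in STAT3-/- and 15.2 and 25 CPM in STAT3-/-PD-1-/- cells (median log2 fold change of 1.47 against WT, 0 of 2 called), and the part of this in the results was not tested.

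Most of the 10 enzyme genes rose in STAT3-/-PD-1-/- T cells of both subsets. In CD4+ cells their summed level was 692.3 ± 30.3 CPM in WT, 693.2 ± 34.7 CPM in STAT3-/- and 1213 ± 6.11 CPM in STAT3-/-PD-1-/- libraries (SD, n = 2 each). In CD8+ cells it was 916.2 ± 101 CPM in WT, 969.3 ± 103 CPM in STAT3-/- and 1596 ± 7.39 CPM in STAT3-/-PD-1-/- libraries (SD, n = 2 each). The sums of the doubly deleted libraries lay above those of every other library of the same subset. Against WT, 7 of 10 genes rose in CD4+ cells (Cad, Ppat, Gart, Pfas, Paics, Atic and Impdh2) and 8 of 10 rose in CD8+ cells (Cad, Ppat, Gart, Pfas, Paics, Adsl, Atic and Impdh2), and none fell. Among all genes tested, 7.21% were called higher in the CD4+ comparison and 9.01% in the CD8+ comparison. The median log2 fold change of the 10 genes was 0.84 in CD4+ and 0.86 in CD8+ cells, beside medians of -0.01 and 0.00 over all genes.

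**Figure D1:**
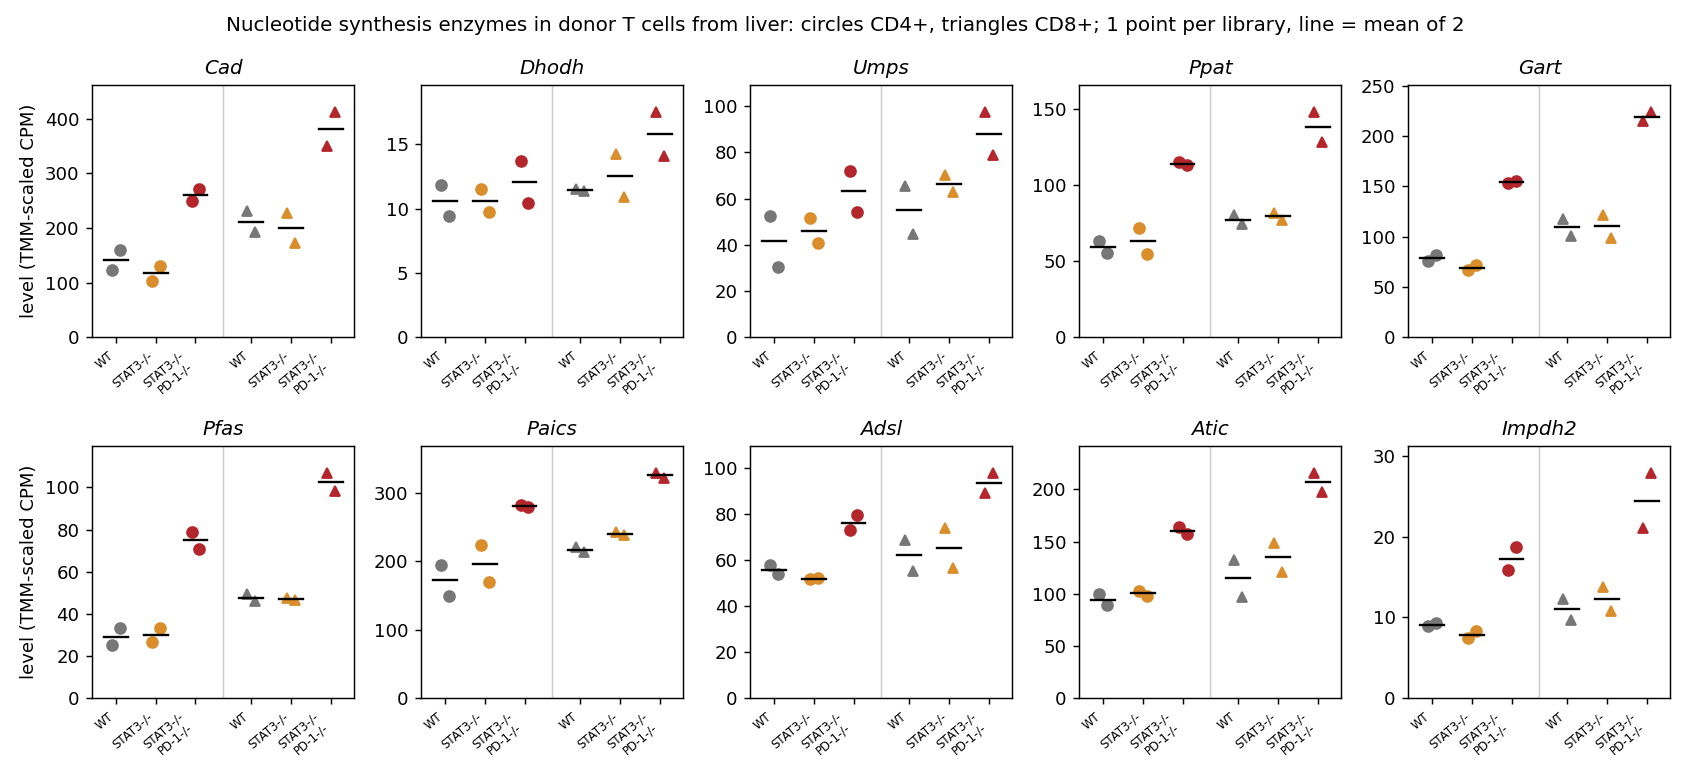
Level of each enzyme gene (vertical axis, TMM-scaled CPM from 0) in the 3 genotypes of CD4+ (circles) and CD8+ (triangles) donor T cells; each point is a library and each line the mean of 2. In CD4+ cells the STAT3-/-PD-1-/- points lie above both WT points for 9 of the 10 genes, and in CD8+ cells for 10 of 10.

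The pyrimidine route begins with Cad, a single protein that carries out its first steps. Cad was at 124 and 159 CPM in CD4+ WT, at 103 and 131 CPM in STAT3-/- and at 249 and 271 CPM in STAT3-/-PD-1-/- libraries. The doubly deleted libraries stood apart from the rest, and Cad rose 1.87-fold against WT (log2 fold change 0.90 ± 0.19 SE, edgeR adjusted p = 0.0251). In CD8+ cells Cad was at 231 and 192 CPM in WT, at 228 and 173 CPM in STAT3-/- and at 349 and 412 CPM in STAT3-/-PD-1-/- libraries, again without overlap, and rose 1.82-fold against WT (log2 0.86 ± 0.17 SE, edgeR adjusted p = 0.0177). Dhodh, the mitochondrial enzyme that oxidises dihydroorotate, was low and flat by comparison. Its CD4+ values were 11.8 and 9.44 CPM in WT, 11.5 and 9.74 CPM in STAT3-/- and 13.7 and 10.4 CPM in STAT3-/-PD-1-/- libraries, so the genotypes overlapped (log2 0.20 ± 0.23 SE against WT, edgeR adjusted p = 0.619). In CD8+ cells Dhodh was at 11.5 and 11.4 CPM in WT and at 17.5 and 14.1 CPM in STAT3-/-PD-1-/- libraries, which did not overlap but did not pass the test (log2 0.47 ± 0.20 SE, edgeR adjusted p = 0.142). Umps, which makes uridine monophosphate from orotate, had a wide spread between replicates, with replicate 1 above replicate 2 in each of the 6 groups. It was at 52.6 and 30.4 CPM in CD4+ WT and at 72.1 and 54.2 CPM in CD4+ STAT3-/-PD-1-/- libraries (log2 0.63 ± 0.27 SE, edgeR adjusted p = 0.179, and from 0.0159, with the replicate number as a block, to 0.6 over the 14 alternative settings, of which 1 called it). In CD8+ cells it was at 65.3 and 44.5 CPM in WT, at 70 and 62.9 CPM in STAT3-/- and at 97.4 and 78.7 CPM in STAT3-/-PD-1-/- libraries (log2 0.69 ± 0.20 SE against WT, edgeR adjusted p = 0.052, and 0.0124 with the replicate number as a block). Umps thus lay at the threshold in CD8+ cells, and it passed under 7 of the 14 alternative settings tried.

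Ppat, the first and rate-limiting enzyme of purine synthesis, was at 63.1 and 55.1 CPM in CD4+ WT, at 71.5 and 54.9 CPM in STAT3-/- and at 115 and 113 CPM in STAT3-/-PD-1-/- libraries. In CD8+ cells it was at 80.3 and 74.2 CPM in WT, at 81.7 and 77.3 CPM in STAT3-/- and at 148 and 128 CPM in STAT3-/-PD-1-/- libraries. Ppat rose 1.96-fold in CD4+ (edgeR adjusted p = 0.0134) and 1.80-fold in CD8+ STAT3-/-PD-1-/- cells (edgeR adjusted p = 0.00785) against WT. Gart, which carries 3 activities of the route in 1 protein, followed the same pattern, with little spread in CD4+ cells. It was at 75.8 and 82.2 CPM in CD4+ WT, at 66.9 and 71.7 CPM in STAT3-/- and at 153 and 155 CPM in STAT3-/-PD-1-/- libraries. The CD8+ values of Gart were 118 and 101 CPM in WT, 122 and 99 CPM in STAT3-/- and 215 and 224 CPM in STAT3-/-PD-1-/- libraries. Gart rose 1.98-fold in CD4+ (log2 0.99 ± 0.14 SE, edgeR adjusted p = 0.00782) and 2.02-fold in CD8+ cells (log2 1.02 ± 0.14 SE, edgeR adjusted p = 0.00716).

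Pfas, the amidotransferase that acts after Gart's formylation step, had the largest fold change of the 10 genes against WT in CD4+ cells. It was at 25.1 and 33.2 CPM in CD4+ WT, at 26.7 and 33.3 CPM in STAT3-/- and at 79.1 and 70.7 CPM in STAT3-/-PD-1-/- libraries. This was a 2.60-fold rise (log2 1.38 ± 0.20 SE, edgeR adjusted p = 0.00834), with no overlap between the doubly deleted libraries and the others. In CD8+ cells Pfas was at 49.2 and 46.2 CPM in WT, at 47.7 and 46.7 CPM in STAT3-/- and at 107 and 98.2 CPM in STAT3-/-PD-1-/- libraries, a 2.17-fold rise against WT (edgeR adjusted p = 0.00338) that was called under 14 of 14 alternative settings. Paics joins 2 later steps of ring assembly. It was at 195 and 149 CPM in CD4+ WT, at 224 and 169 CPM in STAT3-/- and at 282 and 279 CPM in STAT3-/-PD-1-/- libraries. Its rise was smaller, 1.66-fold in CD4+ (edgeR adjusted p = 0.0463) and 1.51-fold in CD8+ cells (edgeR adjusted p = 0.011), where it was at 220 and 213 CPM in WT, at 242 and 238 CPM in STAT3-/- and at 329 and 321 CPM in STAT3-/-PD-1-/- libraries.

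Adsl, which removes fumarate both in ring assembly and on the way to adenosine monophosphate, was at 57.7 and 54 CPM in CD4+ WT, at 51.6 and 52.1 CPM in STAT3-/- and at 72.9 and 79.4 CPM in STAT3-/-PD-1-/- libraries. The doubly deleted CD4+ libraries did not overlap the others, but the difference from WT did not pass the test (log2 0.47 ± 0.14 SE, edgeR adjusted p = 0.0722), which it did with the replicate number as a block (edgeR adjusted p = 0.0277). In CD8+ cells Adsl was at 68.7 and 55.3 CPM in WT, at 73.7 and 56.6 CPM in STAT3-/- and at 89.1 and 97.9 CPM in STAT3-/-PD-1-/- libraries, a 1.52-fold rise against WT that passed narrowly (edgeR adjusted p = 0.0487). Atic closes the purine ring. It was at 99.6 and 89.4 CPM in CD4+ WT, at 103 and 98.1 CPM in STAT3-/- and at 164 and 157 CPM in STAT3-/-PD-1-/- libraries, and rose 1.72-fold against WT (edgeR adjusted p = 0.0136). In CD8+ cells Atic was at 132 and 97.3 CPM in WT, at 149 and 121 CPM in STAT3-/- and at 216 and 198 CPM in STAT3-/-PD-1-/- libraries, and rose 1.82-fold (edgeR adjusted p = 0.0183). Impdh2, which commits inosine monophosphate to guanine nucleotides, was at 8.96 and 9.27 CPM in CD4+ WT, at 7.39 and 8.27 CPM in STAT3-/- and at 15.8 and 18.7 CPM in STAT3-/-PD-1-/- libraries. In CD8+ cells it was at 12.3 and 9.71 CPM in WT, at 13.8 and 10.8 CPM in STAT3-/- and at 21 and 27.9 CPM in STAT3-/-PD-1-/- libraries. Impdh2 rose 1.92-fold in CD4+ (edgeR adjusted p = 0.0253) and 2.24-fold in CD8+ cells (edgeR adjusted p = 0.0165), on counts of 157 to 683 reads per library.

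Compared per length, the genes covered a wide range within a library. In CD4+ WT cells Paics had the highest level at 69 ± 13.3 CPM per kilobase of exon, followed by Atic at 36.2 ± 2.77, Gart at 23.7 ± 1.35, Cad at 19.8 ± 3.53, Adsl at 15 ± 0.715, Ppat at 14.7 ± 1.41 and Umps at 11.9 ± 4.51 CPM per kilobase (SD, n = 2). Impdh2, Dhodh and Pfas were lowest at 5.34 ± 0.131, 4.59 ± 0.726 and 4.58 ± 0.904 CPM per kilobase. The place of Impdh2 is uncertain, because most of its sequence is shared with a pseudogene and the treatment of reads that map to several places is not given in the sources used here. Taking each mean with its SD, Gart overlapped Cad, Umps overlapped Cad, Adsl and Ppat, Adsl overlapped Ppat, and Impdh2, Dhodh and Pfas overlapped one another, so the order within these sets was not resolved. In CD4+ STAT3-/-PD-1-/- cells Pfas, at 11.8 ± 0.927 CPM per kilobase, and Impdh2, at 10.1 ± 1.2, lay above Dhodh at 5.19 ± 1.01 CPM per kilobase.

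The counts of calls rest on 2 libraries per group. Without STAT3-/-PD-1-/- replicate 1 or replicate 2, no gene of the 10 was called against WT in CD4+ cells, and without WT replicate 1 or replicate 2 there were 3. The calls over all genes fell as well, from 1538 to 147 and 62 without STAT3-/-PD-1-/- replicate 1 and 2, and to 676 and 575 without WT replicate 1 and 2. In CD8+ cells, 4 genes were called without STAT3-/-PD-1-/- replicate 1, 1 without STAT3-/-PD-1-/- replicate 2, 3 without WT replicate 2 and 8 without WT replicate 1, beside 835, 111, 674 and 1107 of all genes in that order and 2066 with all libraries. Within each replicate number taken alone, all 10 genes were higher in the doubly deleted library than in the WT library in both subsets, with median log2 differences of 0.73 and 0.86 in CD4+ and of 0.65 and 0.92 in CD8+ cells. Libraries without overlap are common in this comparison, since 29.6% of all genes in CD4+ and 30% in CD8+ cells had both STAT3-/-PD-1-/- libraries above both WT libraries, beside 9 and 10 of the 10 enzymes.

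STAT3 deletion alone was not accompanied by a called change in any of the 10 genes. Against WT, log2 fold changes ran from -0.27 (Cad) to 0.20 (Paics) with a median of 0.03 in CD4+ cells, and from -0.08 (Cad) to 0.27 (Umps) with a median of 0.10 in CD8+ cells. Neither comparison had a gene of the 10 at an unadjusted p under 0.05 by edgeR, a value that 10.5% of all genes in CD4+ and 11% in CD8+ cells had, and DESeq2 called 0 in both. Over all genes, 0.334% of those tested were called in CD4+ and 0.0583% in CD8+ cells. These are 40 and 7 genes, a count that depended on the method, with 271 and 210 by DESeq2, 165 and 66 without a filter on low counts and 303 and 9 with the replicate number as a block. No enzyme was called in any of these fits, and the standard errors of the 10 log2 fold changes were 0.14 to 0.27 in CD4+ and 0.10 to 0.22 in CD8+ cells. In CD4+ cells Gart, Adsl and Impdh2 were lower in both STAT3-/- libraries than in both WT libraries, and in CD8+ cells Paics was higher, beside 19.4% of all genes lower and 22.5% higher without overlap in these comparisons.

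Against STAT3-/- libraries, which share the STAT3 deletion, the labelled difference of the doubly deleted cells was the PD-1 deletion. In CD4+ cells 7 of 10 genes rose (Cad, Ppat, Gart, Pfas, Adsl, Atic and Impdh2), beside 6.05% of all genes called higher, and the median log2 fold change was 0.78. In CD8+ cells 7 of 10 rose (Cad, Ppat, Gart, Paics, Pfas, Atic and Impdh2), beside 8.76% of all genes, with a median of 0.72. Pfas rose 2.52-fold and 2.19-fold in CD4+ and CD8+ cells, Gart 2.25-fold and 2.01-fold, Cad 2.25-fold and 1.92-fold, and Impdh2 2.23-fold and 2.00-fold. The STAT3-/-PD-1-/- libraries are the same ones as in the comparison with WT, so these folds are not a second measurement of the doubly deleted cells. Without STAT3-/-PD-1-/- replicate 1 or replicate 2 no gene was called in CD4+ cells, and without STAT3-/- replicate 1 or 2 there were 5 and 4, beside 66, 0, 1185 and 569 of all genes in that order and 1324 with all libraries. In CD8+ cells 5 genes were called without STAT3-/-PD-1-/- replicate 1, 0 without its replicate 2, 5 without STAT3-/- replicate 1 and 2 without STAT3-/- replicate 2, beside 1034, 2, 1194 and 461 of all genes in that order and 2017 with all libraries. With the replicate number as a block, Paics in CD4+ (edgeR adjusted p = 0.021 in place of 0.113) and Adsl in CD8+ cells (0.0402 in place of 0.0677) were called as well, in fits that also called more of all genes higher, 13.2% in CD4+ and 12.5% in CD8+ cells against STAT3-/- and 13.8% and 12.6% against WT.

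**Figure D2:**
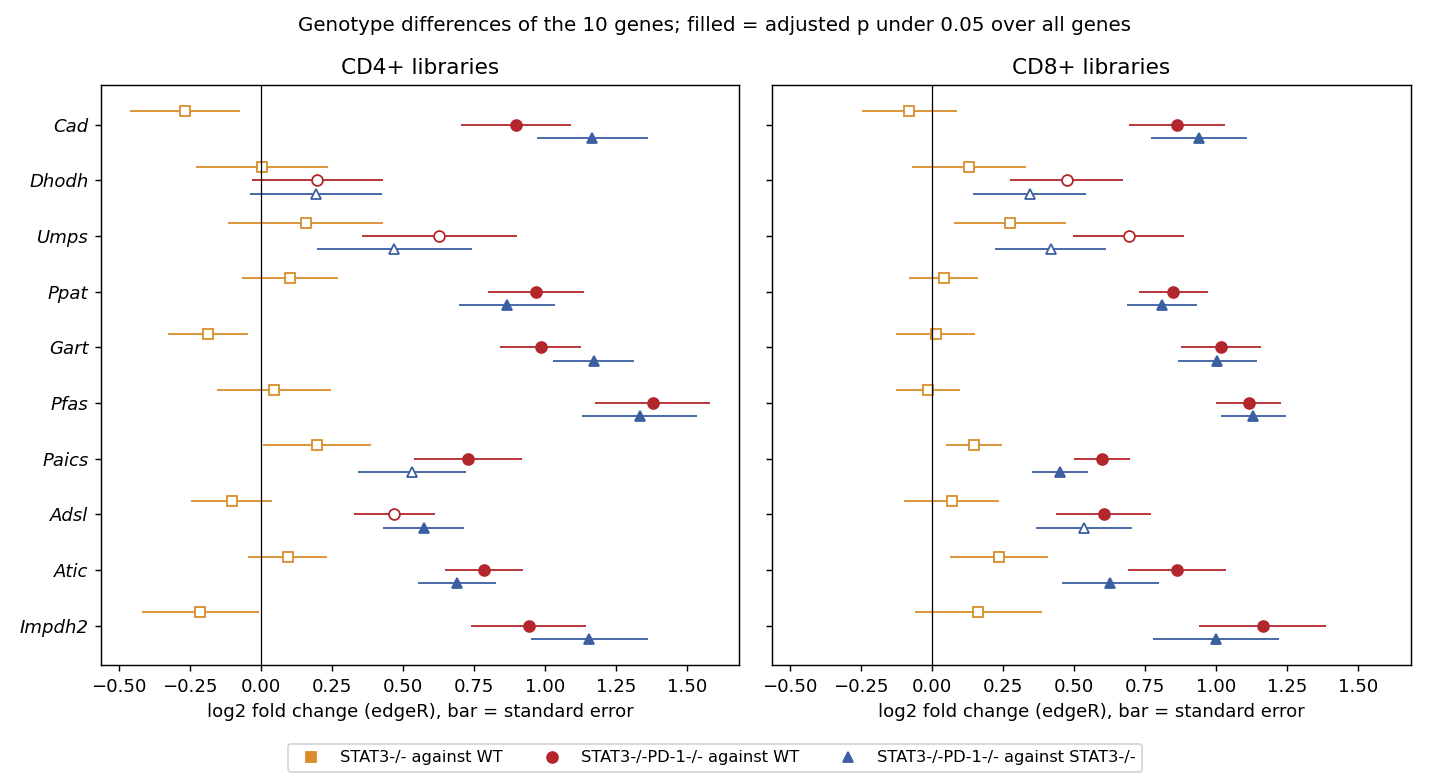
Log2 fold change (horizontal axis) of each enzyme gene in the genotype comparisons, in CD4+ (left) and CD8+ (right) libraries; bars are standard errors and filled symbols passed an adjusted p of 0.05. The STAT3-/- against WT symbols are open throughout and lie between -0.27 and 0.27, while the STAT3-/-PD-1-/- symbols lie between 0.19 and 1.38.

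Between CD8+ and CD4+ cells of the same genotype, the log2 differences of all 10 genes were positive, with a few called. The median difference was 0.36 for WT, and it was 0.48 and 0.43 for the STAT3-/- and STAT3-/-PD-1-/- genotypes. Both CD8+ libraries lay above both CD4+ libraries for 6, 9 and 10 of the 10 genes in that order, beside 25%, 24.9% and 24.6% of all genes. The test called 1 gene higher in WT (Pfas, 1.63-fold, edgeR adjusted p = 0.0191), 3 in STAT3-/- (Cad 1.71-fold, Gart 1.59-fold and Pfas 1.57-fold) and 0 in STAT3-/-PD-1-/- cells, where 5 genes had an unadjusted p under 0.05 by edgeR, beside 14.7% of all genes, and DESeq2 called 1, beside 2.29% of all genes called higher. Among all genes, 4.91%, 4.81% and 1.65% were called higher in CD8+ cells in the 3 genotypes. The study took CD4+ and CD8+ cells from the same livers, and libraries of the same genotype and replicate number were taken here to share a pool. With these inferred pools as a replicate block, 4, 7 and 4 of the 10 genes were called in WT, STAT3-/- and STAT3-/-PD-1-/- cells. Of all genes, 11.2%, 12.1% and 5.89% were called higher in the same fits. Leaving out CD4+ WT replicate 1 or either CD8+ WT replicate ended the WT call, and leaving out CD4+ or CD8+ STAT3-/- replicate 1 ended the 3 STAT3-/- calls, of which 2 were left without CD8+ STAT3-/- replicate 2.

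Whether the genotype effect itself differed between the subsets was tested with an interaction term over all 12 libraries. For STAT3-/-PD-1-/- against WT the CD8+ minus CD4+ differences in log2 fold change ran from -0.26 to 0.29 with a median of 0.06, and no gene of the 10 was called or reached an unadjusted p under 0.05 by edgeR. The same held for STAT3-/- against WT (median 0.14) and for STAT3-/-PD-1-/- against STAT3-/- (median -0.07). DESeq2 called 0 of the 10 in each. Of all genes, 0.00811%, 0% and 0% were called in these 3 tests in that order. The standard errors of the 10 differences were 0.19 to 0.39 for STAT3-/-PD-1-/- against WT. The fit reported here left out the pools of livers that CD4+ and CD8+ libraries of the same number were taken to share. With the pools as a block, more of all genes were called for STAT3-/-PD-1-/- against WT and against STAT3-/-, as given at the end.

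The genes around these enzymes were described from lists of nucleotide metabolism. Against WT, genes called lower made up 5.65% of all genes in CD4+ and 8.21% in CD8+ STAT3-/-PD-1-/- cells, beside the shares called higher given above. Deoxynucleotide and thymidylate synthesis, which turns ribonucleotides into DNA precursors, had 7 of 8 tested genes higher and 0 lower in both subsets, with median log2 fold changes of 1.04 in CD4+ and 0.67 in CD8+ cells. Against STAT3-/- libraries 6 of 8 rose in CD4+ and 3 of 8 in CD8+ cells, with medians of 0.76 and 0.47. Against WT, Dut, which removes dUTP, rose by a log2 fold change of 1.14 ± 0.16 SE and 0.76 ± 0.16 SE, and Dctd, which turns dCMP into dUMP, by 1.16 ± 0.27 SE and 1.02 ± 0.25 SE in CD4+ and CD8+ cells. Rrm2b, a subunit of ribonucleotide reductase used outside S phase, was the eighth gene, at -0.51 ± 0.24 SE and -0.62 ± 0.29 SE, and did not pass in either subset. Of the 8 tested genes that supply one-carbon units and glycine, 4 rose and 0 fell in both subsets (Shmt1, Shmt2, Mthfd1 and Mthfd1l). Shmt1, which moves the one-carbon unit of serine onto folate, rose from 16.5 and 14.6 CPM in CD4+ WT to 48.5 and 58.1 CPM in STAT3-/-PD-1-/- libraries (edgeR adjusted p = 0.00321), the largest rise in the list. In the comparison with STAT3-/- libraries, 4 of 8 rose in each subset. The other 4 genes of this list, among them Mthfd2 at 0.10 ± 0.14 SE and 0.19 ± 0.12 SE on the log2 scale, were not called. These counts depended on single libraries, as did the calls over all genes. Against WT without STAT3-/-PD-1-/- replicate 1 or 2, the deoxynucleotide list had 0 and 0 genes higher in CD4+ and 1 and 0 in CD8+ cells, and 1 in each subset without WT replicate 2. The one-carbon list had 1 and 1 higher in CD4+ and 1 and 0 in CD8+ cells without STAT3-/-PD-1-/- replicate 1 or 2, and 4 in CD4+ and 0 in CD8+ cells without WT replicate 2. In the comparison with STAT3-/-, the deoxynucleotide list had 0 higher without either STAT3-/-PD-1-/- replicate in both subsets, and the one-carbon list 1 and 0 in CD4+ and 2 and 0 in CD8+ cells. In CD8+ cells without STAT3-/-PD-1-/- replicate 1, 1 gene of the deoxynucleotide list was called lower in both comparisons.

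The synthesis routes hold further enzymes beside the 10. Of 8 other tested genes of purine synthesis, 0 were called in CD4+ cells (1 at an unadjusted p under 0.05 by edgeR, 0 by DESeq2, beside 28.7% and 18.1% of all genes) and 1 rose in CD8+ cells (Gmps, which makes guanosine monophosphate, log2 0.49 ± 0.12 SE, edgeR adjusted p = 0.0335). Impdh1, the isoenzyme of Impdh2, was at 100 ± 2.41 CPM in CD4+ WT and 91.6 ± 5.32 CPM in CD4+ STAT3-/-PD-1-/- libraries (SD, n = 2), and was not called in either subset. Of 6 other pyrimidine genes, 1 rose in CD4+ (Ctps, which makes cytidine triphosphate, log2 0.74 ± 0.16 SE) and 2 in CD8+ cells (Ctps 0.73 ± 0.17 SE and Nme1 0.41 ± 0.11 SE). In the pentose phosphate list, whose enzymes supply ribose phosphate, 1 of 7 rose in CD4+ (Tkt) and 3 of 7 in CD8+ cells (Tkt, Pgd and G6pdx). Among all genes, 7.21% in CD4+ and 9.01% in CD8+ cells were called higher against WT. A count of 1 gene in lists this small cannot be told apart from such shares. Against STAT3-/- libraries, 1 of 8 other purine genes and 1 of 7 pentose phosphate genes rose in each subset. Among all genes, 6.05% in CD4+ and 8.76% in CD8+ cells were called higher there. Of the 6 other pyrimidine genes, 3 rose in each subset and 2 were lower in CD8+ cells, where 8.05% of all genes were called lower. These counts against STAT3-/- depended on single libraries. Without either STAT3-/-PD-1-/- replicate, these 3 lists had 0 genes called against WT in both subsets.

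Salvage and transport genes were called in both directions. In the breakdown list the CD4+ calls against WT were near the shares of all genes, 7.21% called higher and 5.65% called lower. In the salvage list, 2 of 11 tested genes rose and 1 fell in CD4+ cells, and 3 rose and 1 fell in CD8+ cells. Adk, which phosphorylates adenosine, rose (log2 1.37 ± 0.24 SE in CD4+ and 0.90 ± 0.13 SE in CD8+), as did the S-phase thymidine kinase Tk1 (0.92 ± 0.15 SE and 0.53 ± 0.11 SE), while the mitochondrial kinase Tk2 fell (-0.79 ± 0.18 SE and -0.85 ± 0.17 SE). Nt5e, the surface enzyme CD73 that makes adenosine from adenosine monophosphate, was at 63 and 59.7 CPM in CD4+ WT, at 37.5 and 51.6 CPM in STAT3-/- and at 16.3 and 20.2 CPM in STAT3-/-PD-1-/- libraries, and fell against WT (log2 -1.72 ± 0.21 SE, edgeR adjusted p = 0.00515). In CD8+ cells Nt5e was at 32.9 and 32.5 CPM in WT and at 14.1 and 20.6 CPM in STAT3-/-PD-1-/- libraries and did not pass (edgeR adjusted p = 0.0529). Pnp2, a purine nucleoside phosphorylase, rose in CD4+ cells (log2 1.66 ± 0.42 SE, edgeR adjusted p = 0.0419), which left 1 gene higher and 1 lower of 12 tested in the breakdown list, and 0 of 10 were called in CD8+ cells (3 at an unadjusted p under 0.05 by edgeR and 2 called by DESeq2, shares near the 34% and 22.7% of all genes). Of 5 nucleoside and nucleobase transporters, Slc43a3 and Slc29a1 rose and the concentrative transporter Slc28a2 fell in both subsets (Slc28a2 log2 -1.05 ± 0.16 SE and -1.21 ± 0.19 SE). Against STAT3-/- libraries the counts of genes higher and lower were 3 and 1 (CD4+) and 2 and 1 (CD8+) for salvage, 1 and 3 in both subsets for breakdown and 2 and 1 in both for transport, beside 5.03% and 8.05% of all genes called lower in CD4+ and CD8+ cells. Leaving out STAT3-/-PD-1-/- replicate 1 or 2 ended the calls of these 3 lists in CD4+ cells in both comparisons, and leaving out replicate 2 ended those in CD8+ cells. Without replicate 1, CD8+ cells had 1 salvage and 1 transport call against WT, and 1 salvage and 2 breakdown calls against STAT3-/-.

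**Figure D3:**
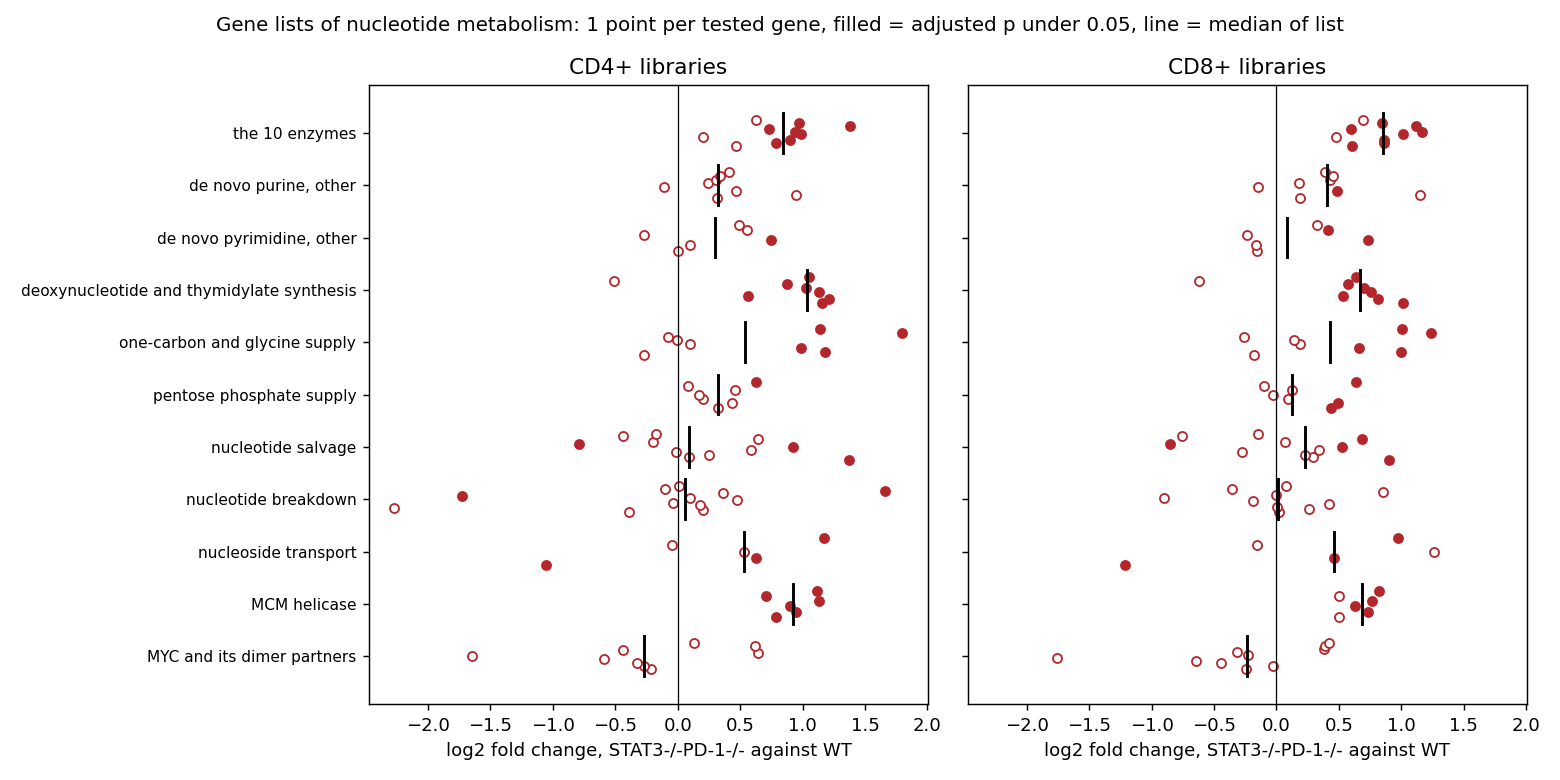
Log2 fold change of STAT3-/-PD-1-/- against WT libraries (horizontal axis) for each tested gene of the lists (rows), in CD4+ (left) and CD8+ (right) cells; filled points passed an adjusted p of 0.05 and the vertical line is the list's median. The 10 enzymes have medians of 0.84 and 0.86, the deoxynucleotide list 1.04 and 0.67, and the breakdown list 0.06 and 0.01.

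Genes of 1 complex of DNA replication were counted as well. All 6 genes of the MCM helicase, which unwinds DNA at replication origins, rose in CD4+ STAT3-/-PD-1-/- cells against WT and 4 of 6 rose in CD8+ cells, with medians of 0.92 and 0.68 on the log2 scale. Against STAT3-/- libraries 5 of 6 rose in CD4+ and 1 of 6 in CD8+ STAT3-/-PD-1-/- cells, with medians of 0.81 and 0.41. The counts of both comparisons depended on single libraries. Without STAT3-/-PD-1-/- replicate 1 or 2, the counts against WT were 0 and 0 in CD4+ and 1 and 0 in CD8+ cells, and without WT replicate 2 they were 2 and 0. Their part in the result on the enzymes was not tested, and in bulk libraries a larger share of cells with high expression and more mRNA per cell cannot be told apart. STAT3 deletion alone had 0 called genes in the MCM list and in each other list of nucleotide metabolism, where edgeR gave 0 to 3 genes of a list an unadjusted p under 0.05. Myc, a transcription factor known to act on nucleotide synthesis genes, was at 77.5 and 65.9 CPM in CD4+ WT, at 80.9 and 43.6 CPM in STAT3-/- and at 97.8 and 56.7 CPM in STAT3-/-PD-1-/- libraries. In CD8+ cells Myc was at 69 and 49.8 CPM in WT, at 79.7 and 43.6 CPM in STAT3-/- and at 98.3 and 56 CPM in STAT3-/-PD-1-/- libraries. Replicate 1 lay above replicate 2 in each of the 6 groups, and within a replicate number Myc was higher in STAT3-/-PD-1-/- than in STAT3-/- libraries in both subsets, and higher than in WT libraries in CD8+ but not in both CD4+ pairs. The difference of Myc from WT was not called (log2 0.13 ± 0.33 SE and 0.39 ± 0.34 SE, and below 0, at -0.31 and -0.09, without STAT3-/-PD-1-/- replicate 1). It was not called with the replicate number as a block either (edgeR adjusted p = 0.791 in CD4+ and 0.0998 in CD8+ cells). The difference from STAT3-/- libraries was not called without a block (edgeR adjusted p = 0.541 and 0.525), and no blocked value is given for it here. Against WT, 0 of 9 and 0 of 10 tested genes of MYC and its dimer partners were called in CD4+ and CD8+ cells (5 and 4 at an unadjusted p under 0.05 by edgeR, beside 28.7% and 34% of all genes, and 3 and 1 called by DESeq2, beside 18.1% and 22.7%). Against STAT3-/- libraries 1 of 9 fell in CD4+ (Mxd4) and 2 of 10 fell in CD8+ cells (Mxd3 and Mxd4). Among all genes, 5.03% and 8.05% were called lower in these comparisons. Mxd3 and Mxd4 encode MAX partners known to oppose MYC. The list medians were -0.21 and -0.45, and the calls depended on single libraries.

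Across the 12 libraries the enzymes varied together. Pearson's r of each gene with the mean log2(CPM + 1) of the other 9 ran from 0.757 (Dhodh) and 0.821 (Umps) to 0.977 (Atic) and 0.983 (Gart). Outside the 10, the genes with the most similar profile were Mthfd1 (r = 0.994), the trifunctional folate enzyme that supplies formyl groups to Gart and Atic, Cinp (0.990), a partner of cyclin-dependent kinase, Psat1 (0.990), an enzyme of serine synthesis, the nuclear import receptor Ipo5 (0.989) and the nuclear pore subunit Nup85 (0.986). Mthfd1 was at 62 and 57.2 CPM in CD4+ WT, at 60 and 54.8 CPM in STAT3-/- and at 137 and 130 CPM in STAT3-/-PD-1-/- libraries. For Myc, whose levels differed between the replicate numbers in each group, r was 0.321 with a Spearman's rho of 0.35. These values describe 12 libraries that share the genotype and subset differences above and are not tests.

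**Figure D4:**
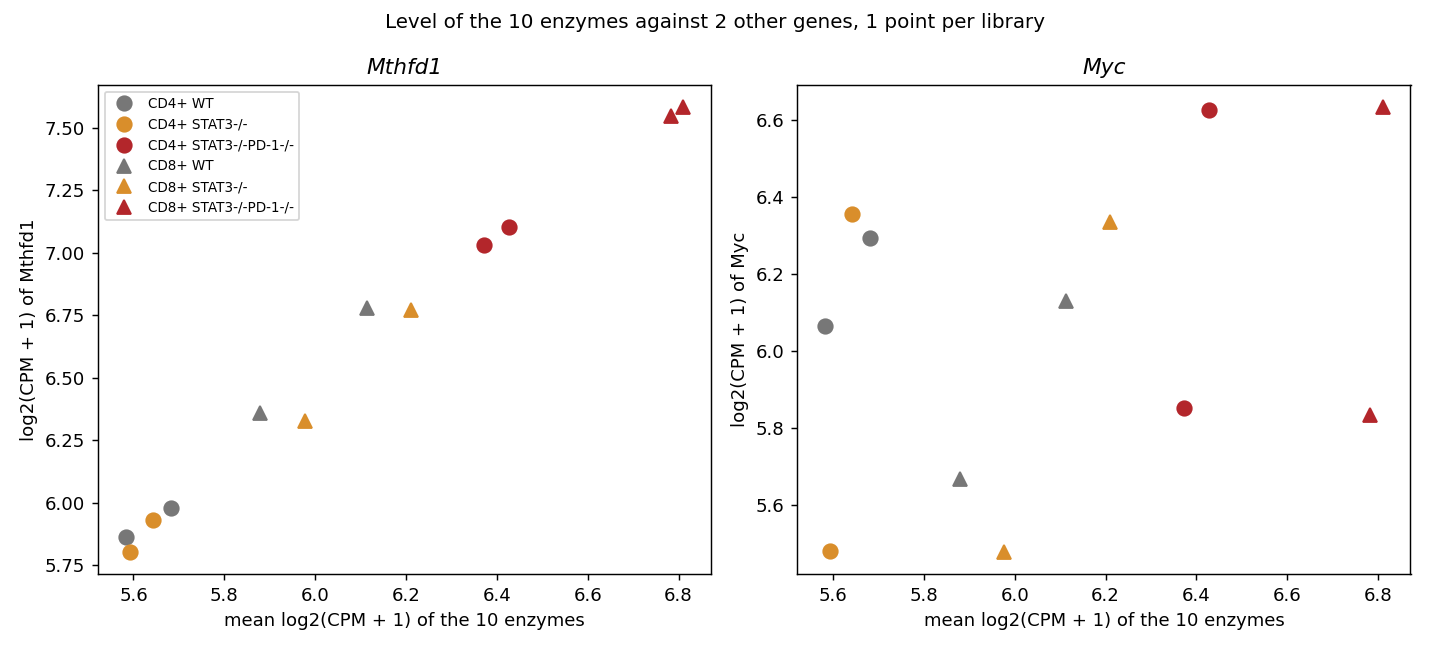
Log2(CPM + 1) of Mthfd1 (left) and Myc (right) on the vertical axis against the mean log2(CPM + 1) of the 10 enzymes on the horizontal axis; each point is a library, circles CD4+ and triangles CD8+. Mthfd1 follows the enzymes (r = 0.994), with the STAT3-/-PD-1-/- libraries highest within each subset, and Myc does so less closely (r = 0.321).

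Summed markers of other cell types ranged per library from 0 CPM (erythroid) to 198 CPM (endothelial, nearly all of it Pecam1), with differences between genotypes in some. Summed over 9 genes, hepatocyte markers reached 1.41 to 5.27 CPM per library, with Trf most abundant and 1 to 4 of the 9 at 0, and Trf was called higher in CD8+ STAT3-/-PD-1-/- cells against STAT3-/- (log2 1.73 ± 0.48 SE). The 7 Kupffer cell and monocyte markers summed to 6.97 to 15 CPM in CD4+ and 17.6 to 35 CPM in CD8+ libraries, with Cd68 most abundant, which fell in CD8+ STAT3-/-PD-1-/- cells against WT and against STAT3-/-. The other 6 of these markers summed to 6.31 and 6.15 CPM in CD4+ and CD8+ WT replicate 2 and to 4.80 and 4.38 CPM in STAT3-/- replicate 2, and to 0.302 to 1.04 CPM in the remaining 8 libraries. Of the full list of 7, 5 were tested, Cd68 among them. Their median log2 fold changes were -2.55 and -2.48 against WT and -2.13 and -1.81 against STAT3-/- in CD4+ and CD8+ cells. The median log2 differences of the enzymes from WT in CD4+ and CD8+ cells were 0.73 and 0.65 in replicate 1. In replicate 2 they were 0.86 and 0.92. The part of these 6 markers in the differences was not tested. Neutrophil markers summed to 0.0471 to 1.14 CPM over 4 genes, and the most abundant of them differed between libraries. The 4 endothelial markers summed to 110 to 198 CPM, and none tested was called in STAT3-/-PD-1-/- cells against WT or STAT3-/-. Nearly all of this sum was Pecam1, and Kdr, Stab2 and Cdh5 each stayed at or below 1.1 CPM in every library. The 5 hemoglobin and erythroid genes were at 0 in each library. The 4 B cell markers summed to 7.87 and 16.4 CPM in CD4+ WT, 31.2 and 40.5 CPM in CD4+ STAT3-/- and 41.9 and 43.3 CPM in CD4+ STAT3-/-PD-1-/- libraries. Nearly all of this was Cd22, the single B cell gene tested, which was called higher against WT, and the part of these markers in the result was not tested. Of the 6 T cell genes, 1 fell in CD4+ and 3 fell in CD8+ STAT3-/-PD-1-/- cells against WT, Cd4 fell in CD4+ cells, both Cd8 genes fell in CD8+ cells and the 3 NK cell markers summed to 25.2 and 12.4 CPM there against 55.6 and 61.6 CPM in WT, with 2 of 2 tested called lower. In the comparison with STAT3-/-, the NK cell gene Klre1 was lower in both subsets (log2 -2.09 ± 0.52 SE in CD4+ and -1.80 ± 0.40 SE in CD8+), and in CD8+ cells the T cell genes Cd2 and Lck and both Cd8 genes fell. The T cell genes summed to 4070 to 5420 CPM per library, with Thy1 most abundant. The part of these differences in the result on the enzymes was not tested.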

How the data were processed

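Donor CD4+ and CD8+ T cells from liver gave 12 libraries; each pools 3 recipients. Per the study's methods, the authors aligned single-end reads to mm10 with STAR and counted reads per RefSeq gene with HTSeq-count; the deposited counts are not normalized, and the deposited RPKM values divide them by exon length and library size. The labels name another library kit and a cell line protocol that does not belong to sorted T cells; these were not used.

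Counts were tested with edgeR 4.0.16 (R 4.3.3): filterByExpr with a minimum count of 10 and a minimum total of 15, TMM scaling, the quasi-likelihood test and Benjamini-Hochberg adjustment over all genes kept, 11959 in the 6 CD4+ libraries (3 residual degrees of freedom), 12002 in the 6 CD8+ libraries and 12334 in all 12, which served comparisons across subsets. Standard errors are the fold change divided by the root of the test's F. The scripts were tested on simulated data. With 2 samples against 2, an exact permutation test cannot go below p = 0.333, so no single-gene permutation test was made. Alternatives were DESeq2 1.42.0, other scalings and filters, each library left out, replicate blocks and limma 3.58.1 on log2(RPKM + 1) or log2(RPKM + 0.1). The named genes were the 10 enzymes, Stat3, Pdcd1, Myc, up to 3 called genes with the largest change per list and subset, and the 5 genes most alike over libraries, of which 1 list gene is not reported here; Rrm2b, Mthfd1l, Mthfd2, Impdh1, Mxd3, Mxd4 and single cell type markers were named after their values were seen. Members and lists were chosen with earlier results of these data known.

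Per the study, CD8+ cells came from the same livers as CD4+ cells. That CD4+ and CD8+ libraries of the same genotype and number share a pool was inferred from the labels. Deviations of these pairs from the group means correlated at 0.64, 0.64 and 0.79 in WT, STAT3-/- and STAT3-/-PD-1-/-. WT and STAT3-/- libraries of the same number correlated at 0.76 in CD4+ and 0.77 in CD8+ cells, so the values do not single out the pairs. Across genotypes, the running numbers in the sample titles are consecutive within a replicate number, and the methods speak of batches for the TCR libraries of these cells, so the number was taken as a batch; same-numbered libraries correlated at 0.22 to 0.76 in CD4+ and 0.04 to 0.77 in CD8+ cells. The replicates are separate pools, and within a subset p-values measure the spread between pools. The reported fit of all 12 libraries treats CD4+ and CD8+ libraries as independent, so its p-values do not measure that spread where they share a pool.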

Additional observations from a re-analysis of the deposited data

How the results depend on the processing

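Against WT, no enzyme had a log2 fold change below 0 in STAT3-/-PD-1-/- cells under the 14 alternatives tried in each subset, with the lowest value 0 for Dhodh in CD4+ cells. Of the 140 values, 27 lost and 3 gained a call in CD4+ and 23 lost and 7 gained one in CD8+ cells. Another scaling moved the median of all genes by at most 0.082 (log2). The cause of the changes below was not tested.

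Leaving out a library gave the following ranges. The enzymes called ran from 0 to 3 (CD4+) and 1 to 8 (CD8+) against WT, from 0 to 5 in both subsets against STAT3-/-, and for CD8+ against CD4+ from 0 to 1 in WT and 0 to 3 in STAT3-/-. All genes called ran from 9 to 49 (CD4+) and 0 to 2 (CD8+) for STAT3-/- against WT, beside 40 and 7 with all libraries, from 62 to 676 and 111 to 1107 for STAT3-/-PD-1-/- against WT, from 0 to 1185 and 2 to 1194 against STAT3-/-, and for CD8+ against CD4+ from 611 to 819, 428 to 775 and 163 to 200 by genotype. The enzymes' median log2 fold change ran from -0.10 to 0.05 for CD4+ STAT3-/- against WT, 0.79 to 0.91 (CD4+) and 0.68 to 0.99 (CD8+) for STAT3-/-PD-1-/- against WT, 0.68 to 0.87 against CD4+ STAT3-/-, 0.21 to 0.45 and 0.35 to 0.44 for CD8+ against CD4+ in WT and STAT3-/-PD-1-/-, and -0.11 to 0.23 for the CD8+ minus CD4+ difference of STAT3-/-PD-1-/- against WT. For STAT3-/- against WT, single genes crossed 0: in CD4+ cells Umps ran from -0.19 to 0.60, Dhodh from -0.15 to 0.17, Ppat from -0.09 to 0.27, Paics from -0.01 to 0.40 and Pfas from -0.15 to 0.26, and in CD8+ cells Cad from -0.28 to 0.10, Dhodh from -0.07 to 0.31, Ppat from -0.01 to 0.09, Gart from -0.14 to 0.15, Pfas from -0.06 to 0.03, Adsl from -0.13 to 0.24 and Impdh2 from -0.01 to 0.34. Dhodh against CD4+ STAT3-/- ran from -0.01 to 0.37, and Myc against WT, an alternative chosen after seeing the data, from -0.31 to 0.46 (CD4+) and -0.09 to 0.73 (CD8+).

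DESeq2 called 271 and 210 genes for STAT3-/- against WT in CD4+ and CD8+ cells, 2098 for CD4+ STAT3-/-PD-1-/- against STAT3-/- (1324 by edgeR), 3 and 1 enzymes for CD8+ against CD4+ in WT and STAT3-/-PD-1-/-, and 5, 76 and 19 genes for the CD8+ minus CD4+ differences of STAT3-/- against WT, STAT3-/-PD-1-/- against WT and STAT3-/-PD-1-/- against STAT3-/-. Without a filter these differences had 50 and 9 genes for the latter pair, STAT3-/- against WT had 165 (CD4+) and 66 (CD8+), and 2 enzymes were called for CD8+ against CD4+ in WT. With at least 10 counts in every library, CD8+ STAT3-/- against WT had 1 gene and CD8+ against CD4+ in WT 2 enzymes. With library totals only, CD8+ STAT3-/- against WT had 1 gene, CD8+ against CD4+ had 2 enzymes in WT and 1 in STAT3-/-PD-1-/-, and the median against CD4+ STAT3-/- was 0.86. With only the 4 libraries compared, STAT3-/- against WT had 1 (CD4+) and 0 (CD8+) genes. Dhodh in CD4+ STAT3-/- against WT, 0.01 in the reported fit, was -0.01 with library totals only, with 4 libraries and in the 3 limma fits of log2 RPKM.

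With the replicate number as a block, genotype comparisons called 303, 3104 and 3105 genes in CD4+ cells (STAT3-/- against WT, STAT3-/-PD-1-/- against WT and against STAT3-/-), 9, 2965 and 2932 in CD8+ cells, and 0, 9 and 8 enzymes in each subset; against WT this block added calls of Umps (edgeR adjusted p = 0.0159) and Adsl (0.0277) in CD4+ and of Umps (0.0124) in CD8+ cells. Against STAT3-/- it added Paics in CD4+ and Adsl in CD8+ cells, and it changed no other call of an enzyme in a genotype comparison. With the pools as a replicate block, CD8+ against CD4+ had 4, 7 and 4 enzymes and 2991, 3077 and 1774 genes by genotype, and the differences of STAT3-/-PD-1-/- against WT and against STAT3-/- had 84 and 22 genes.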
